A study of Homo sapiens with 6 samples.

Results

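Human chromosome 19 carries the densest array of zinc finger genes in the genome, and 246 of its protein-coding genes are examined here as promoters that were open or closed in the breast cancer line MDA-MB-231. They are the protein-coding genes on chromosome 19 whose symbol is ZNF and a number, with or without a final letter, out of 20175 protein-coding genes in the annotation, GENCODE release 44 placed on GRCh37 (hg19). The short arm, 19p, held 83 of them and the long arm, 19q, held 163. They were compared with 1234 other protein-coding genes of chromosome 19 and with 262 numbered ZNF genes on other chromosomes. The symbol alone chose the genes, so KRAB zinc finger genes under other symbols (ZFP, ZSCAN, ZIK) were left out, and ZNF genes that carry no KRAB domain were kept.

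Most of these genes encode proteins with a row of C2H2 zinc fingers, which read DNA, behind a KRAB domain. The KRAB domain binds TRIM28 (KAP1), which brings the histone methyltransferase SETDB1 and HP1 proteins, and many of the known targets are retroelements that are silenced this way with trimethylation of histone H3 on lysine 9. The family grew by tandem duplication, which left neighbouring copies in clusters, and the bodies of many of these genes carry the same repressive mark while their promoters are open.

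Chromatin accessibility was measured by ATAC-seq, where a transposase inserts sequencing adapters into accessible DNA. MDA-MB-231 is a widely used human line of triple-negative breast cancer. Parental cells, with no edited gene named in the labels, gave 3 libraries, and SAP30-KO1 cells gave 3 libraries. SAP30-KO1 is MDA-MB-231 after CRISPR/Cas9 knockout of SAP30, which belongs to the SIN3 histone deacetylase complex. It was made by mixing several selected knockout cells and is therefore not 1 clone, and the labels name no treatment for either group. The comparison asks whether the accessibility of these promoters differed between parental and SAP30-KO1 cells. SAP30-KO1 is 1 edited line, which per the study's methods was also selected with puromycin. Loss of SAP30 therefore cannot be told apart from other effects of making that line.

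Each library is a list of summits, the highest point of each called peak, with a score that is −log10 of the peak caller's q value. The lists held 29762 to 40650 summits and no read counts, so sequencing depth is unknown and no counting interval is given. Scores of separately called lists do not share a scale. Each summit was therefore given its percentile rank within its own list, from 0 for the weakest to 100 for the strongest. A promoter was called open in a library when a summit lay within 1 kb of any annotated start site of the gene, and its rank was that of the highest-scoring such summit, or 0 when there was none. A closed promoter means that no peak was called, which at unknown depth is not proof of inaccessible chromatin. The labels do not say whether libraries of a group came from separate cultures, so the spread between them may be technical. SAP30 itself was open in every library, at ranks of 84.7, 64.8 and 81.3 in parental and 71.8, 49.5 and 89.5 in SAP30-KO1 cells, and a promoter peak cannot show whether the coding sequence was disrupted. Among markers of this mesenchymal line, VIM, CD44 and CAV1 were open in all 6 libraries and ZEB1 and AXL in 3. Of the luminal and epithelial genes CDH1 had none, ESR1 and PGR 1 library each, FOXA1 2, and GATA3 and EPCAM 5.

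ZNF promoters on chromosome 19 were open more often than those of their neighbours. A peak was found in all 6 libraries at 100 of the 246 genes (40.7%, against 34.5% of all protein-coding genes), in 1 to 5 libraries at 106 (43.1%) and in none at 40 (16.3%, against 37.7% of all). Of the other protein-coding genes of chromosome 19, 204 (16.5%) were open in all 6 libraries and 607 (49.2%) in none. ZNF genes on other chromosomes were open in all 6 libraries at 132 of 262 (50.4%) and in none at 49 (18.7%). The pattern of few closed promoters was thus shared with ZNF genes elsewhere and not with the chromosome. The strength of the peaks was not above average. Over genes open in all 6 libraries, the median of the mean rank was 66.4 for chromosome 19 ZNF genes, 75.8 for ZNF genes elsewhere, 61.2 for other chromosome 19 genes and 71.3 for all genes.

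**Figure D1:**
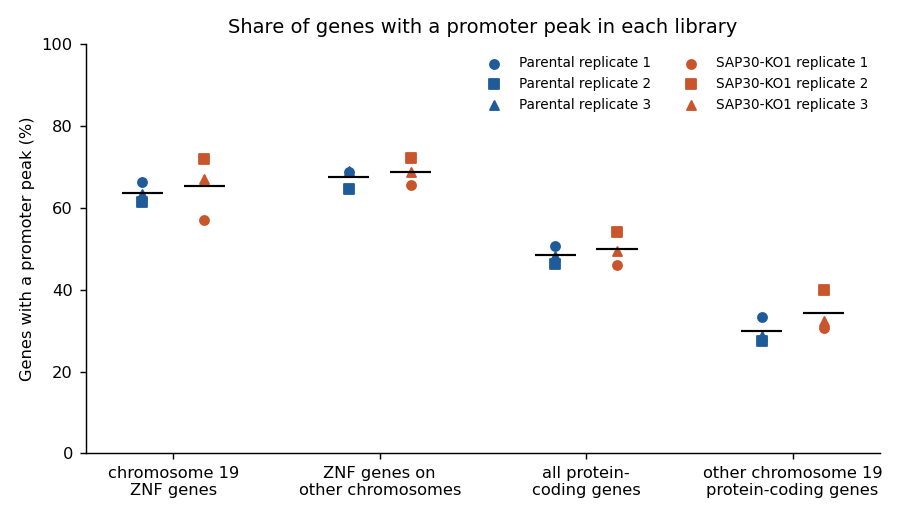
Share of genes with a promoter peak in each library, in percent, for 4 sets of genes; points are libraries and lines are group means. Chromosome 19 ZNF genes lay between 56.9% and 72.0%, above the other protein-coding genes of chromosome 19 in every library.

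Where a peak was counted it lay within 1 kb of an annotated start by definition. Over the 206 genes with a peak in any library, the median distance from the summit to the nearest annotated start was 91.5 bp. Measured from the canonical start alone, the quartiles of the offset were -179 and 83.8 bp. The bodies of all 246 genes held 9 to 13 further summits per library. Summits within 1 kb of any annotated start on the chromosome were left out of this count. The longest exons of the genes, which in this family usually code for the zinc fingers, together held 0 or 1 such summit per library. These counts were not compared with other gene bodies, so they do not show whether summits were sparse. In 9 pairs of genes the same summit served both in at least 1 library, and not all of these are close neighbours. The canonical starts of ZNF432 and ZNF841, on the same strand, lie 46927 bases apart. Those of ZNF28 and ZNF468, also on the same strand, lie 35986 bases apart. Such pairs shared a summit through other annotated starts. ZNF146 and ZNF565 start 441 bases apart in opposite directions and shared their summit in 6 libraries, while ZNF791 and ZNF490, 107 bases apart, shared it in 3. These pairs are not independent of each other in the counts above.

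Genes whose neighbours lay at most 500 kb apart were joined, which gave 10 clusters of at least 5 genes with 232 of the 246 genes, 4 on 19p and 6 on 19q. The clusters differed in how many of their promoters were open. On 19p, 44 of 83 genes (53.0%) were open in all 6 libraries, and on 19q 56 of 163 (34.4%), whereas the other protein-coding genes were open in all 6 libraries at 17.2% on 19p and 16.0% on 19q.

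On 19p the first cluster, from 2.8 to 2.9 Mb, held 5 genes, and only ZNF555 was open in all 6 libraries, at a mean rank of 44.5, while ZNF556 was closed in all. The second, from 8.6 to 9.9 Mb, held 13 genes with 5 open in all 6 libraries, led by ZNF558 at a mean rank of 78.9. ZNF177 and ZNF560 were closed there in every library. The third cluster, from 11.6 to 12.8 Mb, held 25 genes and no closed promoter, with 14 open in all 6 libraries. Its strongest genes were ZNF563 at 92.7, ZNF564 at 92.0 and ZNF442 at 91.3, and 21 to 23 of its 25 genes were open in each library. ZNF799 (89.8) and ZNF443 (87.8) were also high, but under 90% of the 75-base reads that could start there occur once in the genome, so reads could be split between them and near-identical copies. The fourth cluster, from 19.8 to 24.2 Mb, lies next to the centromere and held 37 genes, 23 open in all 6 libraries and 8 closed in all.

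On 19q the first cluster, from 35.2 to 35.5 Mb, held 5 genes, of which ZNF792 (65.5) and ZNF302 (47.7) were open in all 6 libraries and none was closed. The second, from 36.7 to 38.3 Mb, held 26 genes, with 5 open in all 6 libraries, 17 in some and 4 in none, and ZNF527 led at 66.2. The third, from 44 to 45 Mb, had 4 of 23 genes open in all 6 libraries, the lowest share of any cluster at 17.4%, and 6 closed. ZNF225 at 77.8 and ZNF235 at 76.3 stood above the rest there. The fourth and larger cluster, from 52.1 to 54.0 Mb, had 10 of 39 genes open in all 6 libraries, 22 in some and 7 in none, with ZNF808 highest at 68.1. The fifth, from 56.0 to 57.2 Mb, held 16 genes with 6 open in all 6 libraries and 5 closed, and ZNF444 ranked at 95.0. The sixth, from 57.7 to 59.0 Mb near the telomere, held 43 genes with 26 open in all 6 libraries and 5 closed. ZNF584 there had the highest mean rank of all 246 genes, 95.9. The 14 genes outside clusters included ZNF333 at 73.6 on 19p and ZNF574 at 75.4 on 19q, 4 genes open in all 6 libraries and 2, ZNF536 and ZNF541, with no peak.

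The promoters with the highest mean rank over the 6 libraries had these values. ZNF584 ranked at 93.3, 98.1 and 96.8 in parental and 96.5, 97.7 and 92.8 in SAP30-KO1 cells. ZNF444, a zinc finger gene with a SCAN domain, ranked at 95.2, 97.9 and 96.2 in parental and 96.2, 97.6 and 87.1 in SAP30-KO1 cells. ZNF254 ranked at 98.2, 96.7 and 86.5 in parental and 93.7, 96.9 and 94.4 in SAP30-KO1 cells. All 3 stayed above rank 86 in every library, which their choice by mean rank largely fixes, and the groups overlapped at each. The number of open genes in a cluster also varied between libraries. In the 44 to 45 Mb cluster 15, 12 and 13 genes were open in the parental and 8, 15 and 13 in the SAP30-KO1 libraries. SAP30-KO1 replicate 1, with the shortest list of summits, gave the 8. In the 56.0 to 57.2 Mb cluster 7 or 8 of the 16 genes were open in every library.

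**Figure D2:**
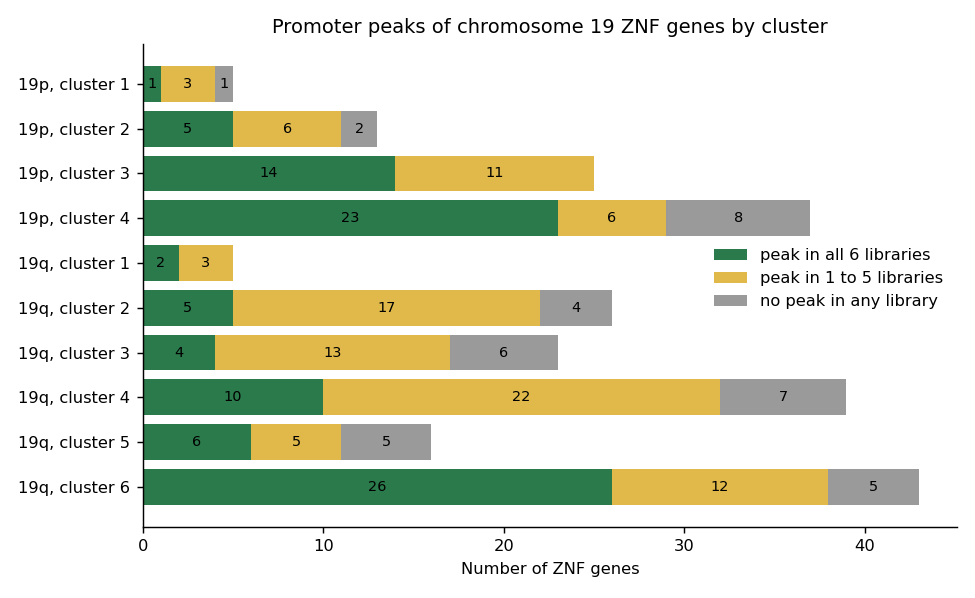
Number of chromosome 19 ZNF genes in each cluster by the number of libraries with a promoter peak, with clusters numbered along 19p from the telomere and along 19q toward the telomere. 19p cluster 3 and 19q cluster 1 had no closed promoter, and in 19q clusters 2, 3 and 4 most genes were open in some libraries only.

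The 19.8 to 24.2 Mb cluster held open and closed genes in separate blocks. From ZNF101 to ZNF43, 21 consecutive ZNF genes were open in at least 5 of the 6 libraries. The next 10 consecutive genes, ZNF208, ZNF257, ZNF676, ZNF729, ZNF98, ZNF492, ZNF99, ZNF723, ZNF728 and ZNF730, had no promoter peak in any parental library, and 8 of them had none in any of the 6. Beyond them ZNF724, ZNF91, ZNF675, ZNF681, ZNF726 and ZNF254 had peaks again, ZNF681 and ZNF726 in 4 libraries and the others in all 6. The block was defined by the parental libraries, so peaks inside it could come from SAP30-KO1 cells only, and nothing is read from that. ZNF257 had a peak in replicate 2, at rank 39.5, and in replicate 3, at rank 6.62, and ZNF98 had peaks in replicate 2, the higher at rank 25.4.

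The genes on both sides of the block had high ranks in both groups. ZNF43, the last before it, ranked at 91.6, 84.8 and 63.6 in parental and 66.9, 95.0 and 83.7 in SAP30-KO1 cells. The summit of ZNF43 lay 15880 bases from its canonical start, at another annotated start. Its sequence in the motif counts below is that at the canonical start. ZNF724, the first after it, ranked at 90.9, 84.0 and 90.1 in parental and 89.2, 87.0 and 93.3 in SAP30-KO1 cells. The change from open to closed thus fell between neighbouring genes in every library.

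The closed block, chr19:22115760-23330023, spans 1.21 Mb, and it was nearly empty of peaks of any kind. The 6 libraries together had 7 summits in it, 0, 0 and 1 in parental and 1, 4 and 1 in SAP30-KO1 cells, and 4 of the 7 lay at ZNF257 or ZNF98. This was 0 to 3.29 summits per Mb (mean 0.961), while the rest of the same cluster held 11.1 to 12.7 per Mb (mean 12.1). All clusters together held 13.4 to 17.5 summits per Mb and the remainder of chromosome 19 held 10.7 to 17.7. The block was picked because it was closed, so these densities describe it and no test was made. Within 1 kb of the start of each of the 10 genes, at least 93.8% of 75-base reads occur once in the genome. The uniqueness of the rest of the block was not examined. Without read counts, closed chromatin and loss of the segment in these cells cannot be told apart.

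**Figure D3:**
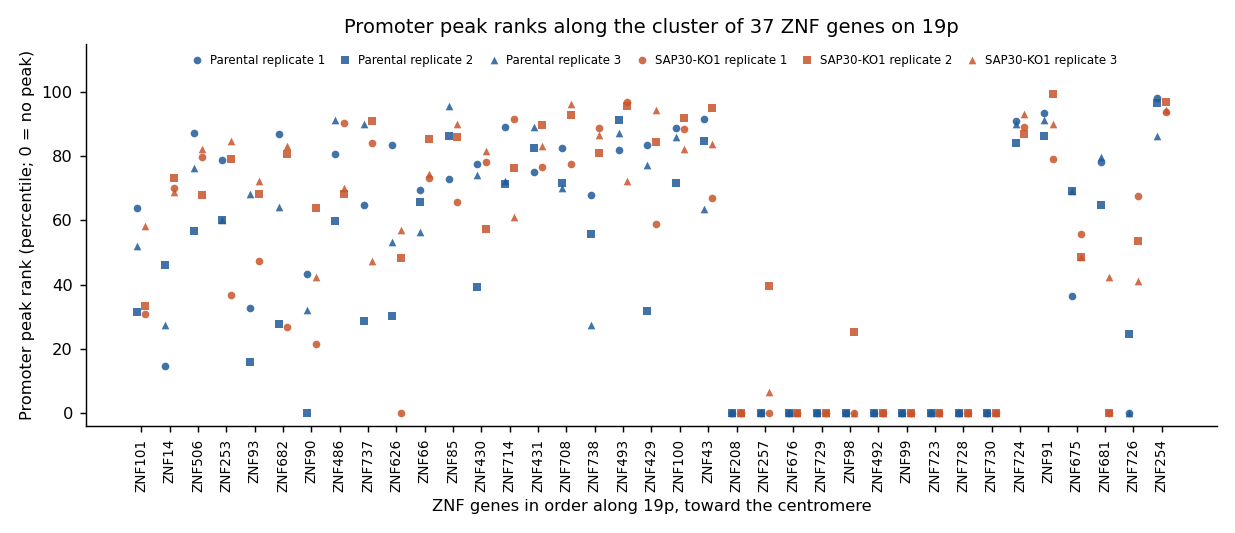
Promoter peak rank in each of the 6 libraries (percentile, with 0 for no peak) for the 37 ZNF genes of the cluster from 19.8 to 24.2 Mb on 19p, in order along the chromosome. The 10 genes from ZNF208 to ZNF730 lie at 0 in all parental libraries, between blocks of genes with high ranks.

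The promoters of open and closed genes in this cluster share their motifs, though not their CpG content. The next sequences show the motifs for 2 strongly open genes, ZNF91 and ZNF254, for 2 genes closed in every library, ZNF208 and ZNF492, and for ZNF681, whose rank differed most between the groups. Each runs from 150 bases before to 50 bases after the start of the canonical transcript, 5′ to 3′ on the strand of the gene, in GRCh37. Capitals mark CCAATCAG, a CCAAT box as bound by NF-Y, and CTTCCGG, the core of an ETS site. ZNF91 is at chr19:23578224-23578423 on the minus strand, ZNF254 at chr19:24269839-24270038 on the plus strand, ZNF208 at chr19:22193696-22193895 on the minus strand, ZNF492 at chr19:22816976-22817175 on the plus strand and ZNF681 at chr19:23941644-23941843 on the minus strand.
ZNF91: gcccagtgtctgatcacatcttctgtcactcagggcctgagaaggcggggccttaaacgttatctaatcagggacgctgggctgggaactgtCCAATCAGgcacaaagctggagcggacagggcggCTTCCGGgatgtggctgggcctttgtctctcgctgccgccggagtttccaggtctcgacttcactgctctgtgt
ZNF254: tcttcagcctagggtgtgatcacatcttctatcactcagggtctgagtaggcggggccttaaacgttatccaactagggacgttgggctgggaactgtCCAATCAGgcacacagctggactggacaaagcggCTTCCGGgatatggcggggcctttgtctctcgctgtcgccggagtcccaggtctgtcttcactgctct
ZNF208: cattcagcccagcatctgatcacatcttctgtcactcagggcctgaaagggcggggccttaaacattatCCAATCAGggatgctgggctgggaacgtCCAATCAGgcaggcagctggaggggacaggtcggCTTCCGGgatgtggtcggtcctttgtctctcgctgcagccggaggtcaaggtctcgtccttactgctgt
ZNF492: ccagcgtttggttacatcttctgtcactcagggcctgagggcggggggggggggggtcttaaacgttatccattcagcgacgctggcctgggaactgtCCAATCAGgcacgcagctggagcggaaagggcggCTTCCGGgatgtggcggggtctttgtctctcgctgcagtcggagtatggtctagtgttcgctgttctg
ZNF681: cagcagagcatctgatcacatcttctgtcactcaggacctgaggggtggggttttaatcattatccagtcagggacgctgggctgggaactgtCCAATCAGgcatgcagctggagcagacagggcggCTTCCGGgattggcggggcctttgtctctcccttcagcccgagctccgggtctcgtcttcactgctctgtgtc

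All 5 carry the CCAAT box about the same distance before the start, followed by the ETS core, and ZNF208, which had no peak, carries a second copy of the CCAAT box. Over the 300 bases from 250 before to 50 after the start, local alignment gave 87.6% identity between open ZNF91 and closed ZNF208 over 298 bases, close to the 87.0% between open ZNF91 and open ZNF254 over 300 bases. ZNF91 and closed ZNF492 were 82.6% identical over 288 bases. Across the cluster the median identity was 80.3% for the 45 pairs within the closed block, 80.4% for the 351 pairs outside it and 80.0% for the 270 pairs with 1 gene on each side. These identities cover the aligned part only, with a median of 227, 262 and 239 bases, and 75.6%, 77.8% and 75.6% of the pairs aligned over more than 200 bases.

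The motif pair was found across the cluster, in open and closed genes alike. CCAATCAG or its reverse complement CTGATTGG occurred in 36 of the 37 promoters, 9 of 10 in the closed block and 27 of 27 outside it, at a median of 52 and 57 bases before the start. CTTCCGG or CCGGAAG occurred in 25 of 37, 7 of 10 in the block and 18 of 27 outside it, at a median of 18 and 22 bases before the start. Both occurred together in 25 of 37 (67.6%). Among 35116 RefSeq promoters of the same length (GRCh38.p14), 3.97% held the CCAAT letters, 10.3% the ETS letters and 0.447% both. Over all 246 genes, the CCAAT letters were in 64 (26%) and the ETS letters in 110 (44.7%), against 6.40% and 15.2% of the other protein-coding genes of chromosome 19. The GC box GGGCGG or CCGCCC was as frequent in the ZNF genes (66.7%) as in those other genes (66.2%). The ETS letters were present in 48.0% of ZNF promoters open in all 6 libraries and in 47.5% of those closed in all, and the CCAAT letters in 35% and 20%, many of them in the 19.8 to 24.2 Mb cluster. These letters were chosen after promoter sequences of this cluster had been read, and a match is not evidence of binding.

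CpG content did not separate open from closed ZNF promoters either, although it separated the other genes of the chromosome. CpG observed over expected is the count of CpG relative to that predicted from the C and G content, and values above about 0.6 are typical of CpG islands. Its median was 0.755 in ZNF promoters open in all 6 libraries, 0.786 in those open in some and 0.755 in those closed in all. In the other chromosome 19 genes it was 0.851, 0.856 and 0.438. Of the 40 closed ZNF promoters 80.0% exceeded 0.6, against 36.1% of the 607 closed promoters of other genes. A peak at any start of a gene counts here, whereas the sequence is that at the canonical start. With peaks at the canonical start only, a choice made after seeing the data, the medians were 0.747 in the 95 ZNF promoters open in all 6 libraries and 0.761 in the 49 closed ones, against 0.876 and 0.441 in the other genes. The median GC content was 59.0% in both the open and the closed ZNF promoters. Mappability did not differ in the median, as 100% of 75-base reads were unique at the median promoter of either class, and 9 of the 246 genes were under 90%, with ZNF468 lowest at 82.0%. The 19.8 to 24.2 Mb cluster was the exception in CpG, with a median of 0.448 over its 27 genes outside the closed block and 0.612 over the 10 genes in it.

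**Figure D4:**
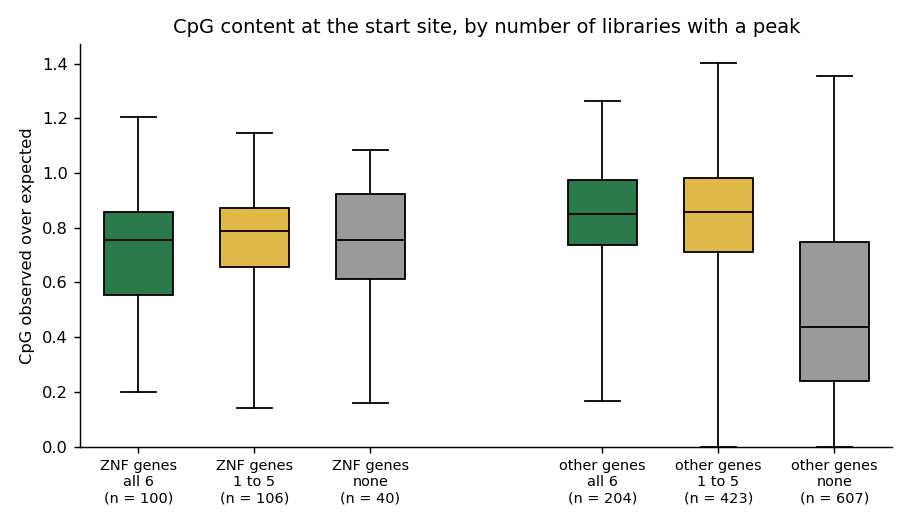
CpG observed over expected in the 300 bases around the start of chromosome 19 ZNF genes and of other protein-coding genes of chromosome 19, by number of libraries with a peak; boxes give the median and quartiles and whiskers the lowest and highest value. Closed ZNF promoters (median 0.755) lay as high as open ones, whereas closed promoters of other genes had a median of 0.438.

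Several genes known for promoter methylation in tumours were among the closed ones. Of 8 such genes, ZNF132, ZNF154, ZNF177, ZNF382, ZNF471 and ZNF582 had no peak in any library, which is 6 of 8 (75%) against 16.3% of all chromosome 19 ZNF genes. ZNF671 had a peak in 2 libraries, at rank 20.9 in parental replicate 1 and 20.6 in SAP30-KO1 replicate 2. ZNF331, an imprinted gene with several start sites, was open in all 6 libraries, at 34.3, 54.6 and 86.6 in parental and 76.2, 70.7 and 78.7 in SAP30-KO1 cells. The list is short and drawn from general knowledge of cancer methylation, and methylation was not measured here. It was chosen with earlier results of these data known, so the 75% describes these genes and was not tested. The next sequences put the strongest promoter of the family, ZNF584, beside ZNF154 and ZNF132 of the same 57.7 to 59.0 Mb cluster, with every CpG in capitals. They cover the same 200 bases around the start, ZNF584 at chr19:58919866-58920065 on the plus strand, ZNF154 at chr19:58220523-58220722 on the minus strand and ZNF132 at chr19:58951471-58951670 on the minus strand.
ZNF584: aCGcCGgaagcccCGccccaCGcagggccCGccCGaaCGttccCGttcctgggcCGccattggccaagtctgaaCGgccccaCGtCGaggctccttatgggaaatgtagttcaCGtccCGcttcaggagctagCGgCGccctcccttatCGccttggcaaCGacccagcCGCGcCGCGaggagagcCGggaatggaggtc
ZNF154: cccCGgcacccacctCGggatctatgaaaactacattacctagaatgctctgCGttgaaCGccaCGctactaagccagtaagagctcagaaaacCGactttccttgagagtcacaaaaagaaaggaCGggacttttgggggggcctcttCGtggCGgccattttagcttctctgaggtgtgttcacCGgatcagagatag
ZNF132: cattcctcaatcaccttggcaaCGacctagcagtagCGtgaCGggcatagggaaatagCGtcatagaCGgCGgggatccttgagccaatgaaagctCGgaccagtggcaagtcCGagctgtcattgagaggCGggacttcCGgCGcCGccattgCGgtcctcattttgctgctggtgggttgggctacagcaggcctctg

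ZNF584 has 23 CpG in these 200 bases, ZNF154 has 10 and ZNF132 has 13. Both closed promoters thus had fewer CpG than the open one in these bases, and whether any of them is methylated was not tested.

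A list of 9 genes with a known role, chosen with earlier results of these data known, was also examined. All 9 were open in at least 3 libraries. Of them, 6 were open in all 6 libraries, against 40.7% of all chromosome 19 ZNF genes, and this was not tested. ZNF91, which represses SVA retrotransposons, ranked at 93.5, 86.2 and 91.2 in parental and 79.1, 99.5 and 90.2 in SAP30-KO1 cells, with overlapping groups. ZNF93, which represses LINE-1 elements, was lower and more variable, at 32.8, 16.0 and 68.3 in parental and 47.4, 68.1 and 72.2 in SAP30-KO1 cells. ZNF274, which binds the 3′ ends of other zinc finger genes and recruits SETDB1 there, was open in 5 of 6 libraries, at 68.3, 28.0 and 0 in parental and 37.6, 56.1 and 48.9 in SAP30-KO1 cells. Others of the list lay in the middle of the range or were open in some libraries only. ZNF473, which acts in the processing of histone mRNA, had mean ranks of 43.8 ± 26 in parental libraries and of 35.4 ± 10.6 in those of SAP30-KO1 (SD, n = 3), and ZNF675, an inhibitor of TRAF6 signalling, at 58.2 ± 18.8 and 51.0 ± 4.20 (SD, n = 3). ZNF224, a repressor that also binds WT1, was open in 4 libraries, and ZNF568 in 3. The ZNF568 summits lay at a promoter shared with ZNF829, whose start is 41 bases away. None of the 9 was called (lowest adjusted p = 0.615, limma).

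The comparison of SAP30-KO1 with parental cells then asked whether these promoters were more or less often open in the edited line. The number of open ZNF promoters was 163, 151 and 156 in the parental and 140, 177 and 165 in the SAP30-KO1 libraries, 157 ± 6.03 and 161 ± 18.9 (SD, n = 3). The SAP30-KO1 libraries lay both below and above all parental libraries, so the difference of 4 genes (2.55%) was within the spread between replicates. Over all protein-coding genes the number of open promoters differed by 3.02%. As a share of all open genes the ZNF genes hardly moved, at 15.9, 16.2 and 16.1 per 1000 open genes in parental and 15.1, 16.3 and 16.5 in SAP30-KO1 libraries. Leaving out SAP30-KO1 replicate 2, which had the longest list, turned the difference to -4.17 genes, and leaving out SAP30-KO1 replicate 1, which had the shortest, raised it to 14.3.

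Ranks did not move as a group. Over the 100 genes open in all 6 libraries the median difference of SAP30-KO1 minus parental was 0.80 rank units, with 53 genes higher and 47 lower, against 0.34 over all protein-coding genes. On 19p the median was 3.73 for ZNF genes and 3.75 for the other genes, and on 19q it was -0.91 and -1.04. The sign of the median on each arm was thus the same in ZNF genes and their neighbours. On 19p the ZNF genes open in all 6 libraries had median ranks of 78.3, 61.5 and 74.2 in the parental libraries. In SAP30-KO1 libraries these were 74.6, 83.9 and 80.5. Libraries of 1 group thus differed by more than the shift on 19p, and the difference between the arms was not tested. Without parental replicate 2 the median over the 100 genes turned to -1.13, and without parental replicate 3 it rose to 3.16.

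Gene by gene, none of the 190 ZNF genes with a peak in at least 2 libraries was called at an adjusted p under 0.05 by limma on the ranks, against 1 of 11390 genes tested (0.00878%). The lowest adjusted p among them was 0.351 (limma), at ZNF562. At an unadjusted p under 0.05, 10 of the 190 were higher in SAP30-KO1 (5.26%, against 4.08% of all genes tested) and 3 were lower (1.58%, against 3.07%). The groups did not overlap at 10 higher genes (5.26%, against 6.63%) and 5 lower genes (2.63%, against 5.05%). These shares lay near or below those of all genes. With 3 libraries a group, the smallest p of an exact permutation test is 0.1, and the lowest adjusted value of that test among the ZNF genes was 0.856. The values of single genes that follow were chosen for the size of their difference and are descriptions, none of them past the threshold.

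Lower ranks in SAP30-KO1 were seen at genes from 4 clusters and 1 outside them. ZNF681, in the 19.8 to 24.2 Mb cluster beyond the closed block, ranked at 78.2, 64.9 and 79.7 in parental and 0, 0 and 42.3 in SAP30-KO1 cells. Its difference of -60.2 ± 13.3 rank units (SE) was the largest of the family in either direction (adjusted p = 0.418, limma). Its promoter, printed above, carries both motifs, and 100% of 75-base reads around its start were unique. ZNF256, in the 57.7 to 59.0 Mb cluster, ranked at 64.5, 18.2 and 73.8 in parental and had no peak in SAP30-KO1 (difference -52.2 ± 15.2, adjusted p = 0.572, limma). ZNF529, in the 36.7 to 38.3 Mb cluster, ranked at 6.24, 45.0 and 13.4 in parental and had no peak in SAP30-KO1. ZNF256 and ZNF529 were the genes open in all 3 parental libraries and in none of SAP30-KO1, a pattern of 0.223% of all protein-coding genes. ZNF562, in the 8.6 to 9.9 Mb cluster, ranked at 30.8, 21.7 and 23.9 in parental and 0, 0 and 1.39 in SAP30-KO1 cells, so its peak ranked low in every library that had it. ZNF574, outside clusters, ranked at 86.0, 83.7 and 88.4 in parental and 38.3, 79.3 and 77.0 in SAP30-KO1 cells, where replicate 1 made most of the difference of -21.2.

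Of the 10 genes that were higher without overlap, 4 lay in the 19.8 to 24.2 Mb cluster and 3, from 2 sites, in the 36.7 to 38.3 Mb cluster, whose 5 genes open in all 6 libraries had a median difference of -12.5. ZNF791, in the 11.6 to 12.8 Mb cluster, had a larger difference than most of them, 43.5, but its groups overlapped. ZNF726, close to ZNF681, had no peak in parental replicates 1 and 3, ranked at 24.8 in replicate 2, and ranked at 67.6, 53.5 and 41.0 in SAP30-KO1 cells (difference 45.8 ± 10.5, adjusted p = 0.428, limma). ZNF14, the second gene of the cluster, ranked at 14.7, 46.3 and 27.6 in parental and 70.0, 73.4 and 68.8 in SAP30-KO1 cells (difference 41.2 ± 8.95, adjusted p = 0.418, limma). Within this cluster the differences of neighbouring genes thus had opposite signs, negative at ZNF681 and positive at ZNF726. ZNF738 of the same cluster ranked at 68.0, 55.7 and 27.6 in parental and 89.0, 81.1 and 86.7 in SAP30-KO1 cells. ZNF77, in the 2.8 to 2.9 Mb cluster, ranked at 11.1, 0 and 40.7 in parental and 71.0, 45.8 and 50.5 in SAP30-KO1 cells.

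ZNF420 (APAK), a KRAB zinc finger gene known for restraining p53, ranked at 17.7, 57.6 and 33.2 in parental and 64.2, 66.8 and 74.9 in SAP30-KO1 cells, a difference of 32.5 ± 11.1 (adjusted p = 0.615, limma). It was 1 of the 9 genes listed above for a known role, and 11.7% of all genes tested had groups that did not overlap. ZNF540 and ZNF571, which start 84 bases apart in opposite directions, had no peak in parental cells and shared summits in SAP30-KO1 cells at ranks of 5.02, 30.0 and 44. They are 1 accessible site counted for both genes, and they were the ZNF genes with a peak in all 3 SAP30-KO1 and no parental libraries, a pattern of 0.406% of all protein-coding genes. The remaining genes without overlap were also higher, ZNF837 by 31.6, ZNF230 by 27.4 and ZNF66 by 13.8 rank units.

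**Figure D5:**
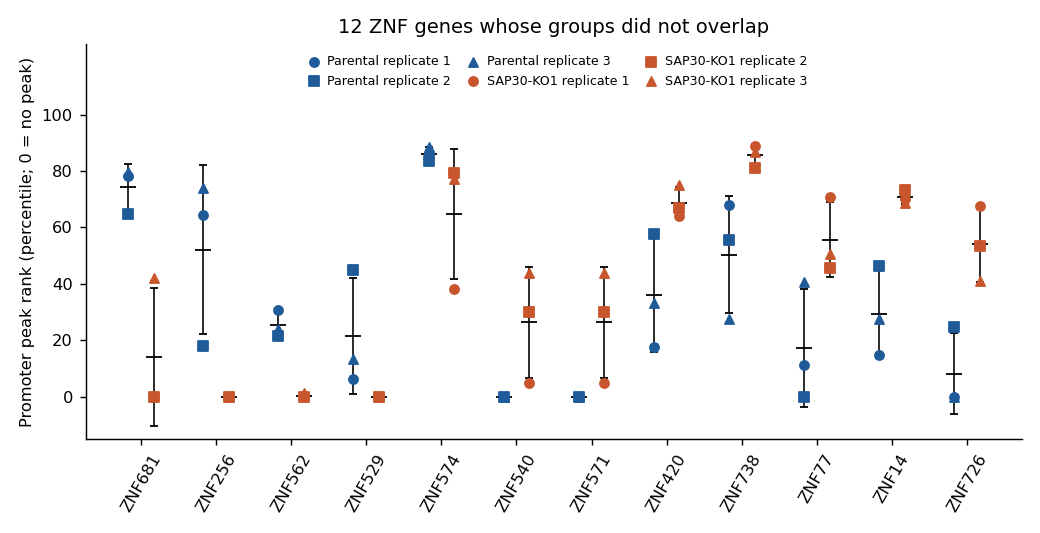
Promoter peak rank (percentile, with 0 for no peak) in each library for 12 ZNF genes whose groups did not overlap, ordered by the difference; points are libraries, horizontal ticks are group means and bars the SD (n = 3). ZNF681 had the largest difference, with ranks of 64.9 to 79.7 in parental and 0 to 42.3 in SAP30-KO1 cells.

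The genes through which KRAB zinc finger proteins act were also examined. TRIM28, the shared corepressor, ranked at 74.5, 85.1 and 83.9 in parental and 79.4, 83.8 and 86.5 in SAP30-KO1 cells, with overlapping groups. Of 12 partner genes, 5 were open in all 6 libraries, against 34.5% of all genes, and UHRF1, which reads methylated DNA, had no peak. None of the 11 tested was called (lowest adjusted p = 0.640, limma). Groups did not overlap at 3 of the 11, all higher in SAP30-KO1, where 6.63% of all genes tested were higher without overlap. This list too was chosen with earlier results of these data known, so the count describes it and was not tested. CBX3, which encodes HP1 gamma, had mean ranks of 25.2 ± 23.2 in parental and of 62.6 ± 10.2 in SAP30-KO1 libraries (SD, n = 3). TASOR and PPHLN1, subunits of the HUSH silencing complex, had 20.9 ± 18.3 and 51.4 ± 18.1, and 36.8 ± 23.5 and 57.3 ± 0.68, in the same order (SD, n = 3). SETDB1 had a peak in 2 parental libraries, at ranks 4.20 and 50.1, and none in SAP30-KO1. ATF7IP and CBX5 were lower in SAP30-KO1, by differences of -29.3 and -16.9 rank units, with overlapping groups. Over all 12 partner genes the median difference of SAP30-KO1 minus parental was -2.98 rank units. SIN3A and SIN3B were open in all 6 libraries.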

How the data were processed

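Per the study's methods, the authors sequenced single-end reads of 75 bases, checked them with FastQC 0.11.2, trimmed them with Trim Galore 0.4.5, aligned them to hg19 with Bowtie2 2.3.3.1, handled duplicates with Picard and ran MACS2 2.1.0 for peaks at a q value of 0.05. The roles of these tools come from the methods and the versions also from the submitters' processing notes. Any shift of reads for the transposase, and any removal of blacklisted regions, is not given in the sources used here. The deposited values are −log10 of the q value at each summit, read from the values themselves, since the lowest score of a list was 1.31 to 1.33. Lists were taken as called separately in each library. Between any pair of lists 0.417% to 0.598% of summits had the same position; the lists are thus of separate libraries.

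The genes and lists were chosen with earlier results of these data known. Promoter ranks were fitted for all protein-coding genes with a peak in at least 2 libraries with limma 3.58.1 (R 4.3.3), without covariates, with Benjamini-Hochberg adjustment over 11390 genes. The size of the shifts that this fit estimates was checked on simulated data. In those data every gene had a value above the floor in every library, unlike the promoters here that lack a peak in some. The exact permutation test was two-sided over 20 assignments of the 6 libraries. Deviations are SD over 3 libraries and errors of differences are SE of the fit. The genes named are those called by limma, those with a peak in all libraries of 1 group only, the 5 with the largest difference in each direction among genes whose groups did not overlap, the highest gene of each cluster, and the lists of known, methylated, partner, SIN3 and marker genes. The other 3 genes whose groups did not overlap, genes named as closed, as neighbours of the closed block or as next in strength, and the printed promoters were added after their values were seen. Promoter sequence was read from GRCh37 at the canonical transcript of GENCODE, and for 3 genes without one at the 5′ end of the gene. Alignments were made with Biopython 1.88. Same-numbered libraries did not deviate together (correlations of -0.03, -0.03 and 0.01), and differently numbered ones gave -0.009 to 0.04. These values cannot decide whether same-numbered libraries were prepared together.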

Additional observations from a re-analysis of the deposited data

How the results depend on the processing

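The peak lists give neither depth nor peak width, so a promoter without a peak may be open below the detection limit of its library, and presence and absence move with the length of a list. Using a single start site per gene raised the number of closed ZNF promoters from 40 to 65. A q value of 0.0001 or less lowered the genes with a peak in 1 group only to 0 in each direction, from 2 and 2, and a single start site lowered them to 1 and 1. Leaving out 1 library at a time gave 2 to 5 genes with a peak in SAP30-KO1 only and 2 to 6 with a peak in parental only. The difference in the number of open ZNF promoters ranged from -4.17 to 14.3 and the median rank shift from -1.13 to 3.16 when 1 library was left out. Limma called 0 ZNF genes in every alternative run, and 0 to 3 of all genes. With the replicate block, 0 of all genes and 0 ZNF genes were called, and the block changed no other call. For the 12 genes of the SAP30-KO1 comparison, which were chosen because their groups did not overlap so that their direction was largely fixed, the lowest adjusted p of limma in any alternative was 0.147. Joining genes at gaps of at most 250 kb or 1 Mb gave 13 or 9 clusters in place of 10, and windows of 2.5 kb added a summit at ZNF575 and ZNF580, which otherwise had none.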
